A study of Mus musculus with 5 samples.

Results

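A rule for fibroblasts and pericytes of the mouse kidney was applied to a single-cell RNA-seq series. It was met by 77 of 79202 filtered cells (0.0972%, exact binomial 95% interval 0.0767 to 0.121), called members here. Of these, 48 formed a sub-cluster, described further on, that took no stromal name and was led by Cdh6, a cadherin of the nephron. The label is therefore that of the rule and is not shown to hold for all members. A filtered cell was a barcode with at least 500 unique molecular identifiers (UMIs, which count captured transcripts), at least 200 genes and at most 25% of UMIs on mitochondrial genes. Members were chosen by their counts of 4 genes: at least 2 of Col1a1, Col3a1, Dcn and Pdgfrb had a UMI and the 4 summed to at least 4, with Ptprc and Cdh5 at 0 and Lrp2 and Slc12a1 at most at 1. The 4 exclusion genes mark leukocytes, endothelium, proximal tubule and the thick ascending limb. Levels of these 8 genes are therefore given as a description and support nothing.

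Kidneys came from mice of a unilateral ischemia-reperfusion (UIR) model of acute kidney injury (AKI), taken at day 1, day 3, day 14 or day 28, and from Sham mice. Each of the 5 conditions was listed as 1 sample. By the labels a kidney sample came from 3 mice, and whether these were pooled before capture is not settled. The sources used here also differ on how many matrices were made, and what 1 library holds in animals is therefore not known. The tissue was digested with collagenases and hyaluronidase, strained, and freed of red cells, so the cells counted here are those that this procedure released. The raw counts of the 5 libraries were deposited as 1 matrix, in which a number from 1 to 5 marks the library and no label ties that number to a condition. The 5 libraries were thus read as a single pool with no replicates, so no test was run and nothing is given by day. The labels name the cell type as Goblet cell, but of 7 goblet cell markers 6 were at 0 in the members and Spdef had 1 UMI.

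Fibroblasts of the kidney lie between the tubules and secrete the fibrillar collagens, proteoglycans and enzymes that make up the interstitial matrix. Pericytes wrap the peritubular capillaries and share the receptor Pdgfrb with fibroblasts. After injury both can take on a contractile, collagen-secreting state known as the myofibroblast, of which Acta2, the gene of alpha smooth muscle actin, is the customary marker.

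Members were spread unevenly over the libraries. Library 1 held 37 of them (0.369% of its filtered cells, 0.260 to 0.509), library 2 held 17 (0.150%, 0.0876 to 0.240), library 3 held 15 (0.0443%, 0.0248 to 0.0731), library 4 held 8 (0.0709%, 0.0306 to 0.140) and library 5 held 0 of 12745, which allows up to 0.0235% by a limit of 3 cells and up to 0.0289% by the exact interval. The members had a median of 5699 UMIs, with a range from 524 to 53903. Depth differed between libraries, with medians of 11317, 6974, 1938 and 692 UMIs in libraries 1 to 4. The 8 members under 1000 UMIs were 3 cells of library 3 and 5 of library 4. Levels below are CPM, the UMIs of a gene summed over cells and scaled to a total of 1000000, so the deep cells of library 1, with 455510 of the 715489 UMIs of all members, weigh most. Exact Poisson intervals for levels, conditional binomial intervals for ratios and binomial intervals for shares, all at 95%, cover counting error only and leave out the spread between cells and between mice.

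Of the 109 filtered cells that passed the 4-gene criterion, the exclusions removed 32, with 18 over the limit of Lrp2, 12 with Ptprc and 4 with Cdh5. The 4 genes summed to exactly 4 in 11 members, whose median depth was 2575 UMIs, and to 10 or more in 43. Just outside the rule, 14 cells had a sum of exactly 3 and a median of 2410.5 UMIs, and 18 cells reached 4 UMIs through 1 gene alone. A UMI of 2, 3 or all 4 of the genes was seen in 32, 28 and 17 members. None of the member barcode sequences recurred among members of another library, and 1 recurred among the filtered cells of another library, against 1290 shared barcodes (1.63%) among all filtered cells. Doublets were kept in. Of the 515 to 2933 cells per library that Scrublet ranked highest as doublets, 0 were members, but only the 69 members of 1000 UMIs or more were scored.

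The libraries differed in where collagen transcripts lay. In libraries 1 and 2 the filtered cells held 92.2% and 78.5% of all Col1a1 UMIs of the library. In libraries 3, 4 and 5 they held 3.05%, 0.505% and 0.197%, while barcodes of 11 to 100 UMIs held 79.5%, 61.7% and 70.0%. The level of Col1a1 in these small barcodes was 4732, 8587 and 6381 CPM, against 2.84 and 17.9 CPM in the same bin of libraries 1 and 2. Col3a1 lay in the same way, at 5359, 10286 and 7653 CPM in libraries 3 to 5. So did Col1a2, at 6919, 12990 and 9352 CPM, and Lum, at 334, 747 and 377 CPM. Acta2 did not, since the filtered cells held 65.5% to 89.5% of its UMIs in all 5 libraries. The 4 genes of the rule together made up 2005 and 6448 CPM of barcodes of at most 100 UMIs in libraries 3 and 4, against 16.95 and 47.7 CPM in libraries 1 and 2. A barcode made wholly of such RNA would hold 3.89 and 4.46 UMIs of them at the median depth of the members of libraries 3 and 4, close to the 4 UMIs of the rule, and 0.192 and 0.333 UMIs in libraries 1 and 2. The part of this RNA in the members of libraries 3 and 4 was not tested.

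**Figure D1:**
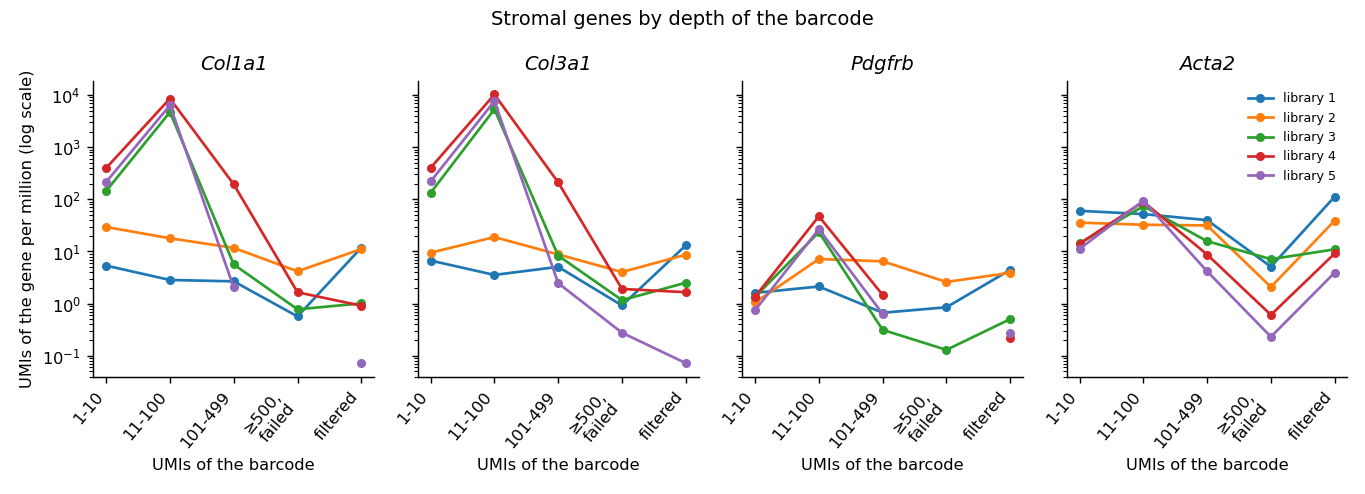
Level of Col1a1, Col3a1, Pdgfrb and Acta2 (CPM, that is UMIs per 1000000, log scale) in barcodes grouped by their own UMI count, for the 5 libraries. Points are sums over all barcodes of a bin, without replicates, and a missing point is 0 UMIs. Col1a1 reached 4732 to 8587 CPM at 11 to 100 UMIs in libraries 3, 4 and 5 and stayed at 2.84 and 17.9 CPM in libraries 1 and 2, while Acta2 lay between 32.6 and 94.4 CPM in that bin in all 5.

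Markers that the rule did not use were compared with the label. Acta2 had a UMI in 50 of 77 members (64.9%, 53.2 to 75.5), against 0.638% of 23207 proximal tubule cells (Lrp2 at least 4), at median depths of 5699 and 7465 UMIs. Thinned to 1000 UMIs per cell, which left out 8 members, the shares were 46.4% and 0.160%. Of the other cells, 24.9% of 189 endothelial cells (Cdh5 at least 2, median 6122 UMIs) had an Acta2 UMI. Of the 50 members with Acta2, 32 were cells of sub-cluster A from libraries 1 and 2, described further on. Of the 34 cells of that group 30 had Wt1 or Pax8, and 20 had neither Col3a1 nor Dcn. Wt1 or Pax8 was seen in 24.8% of the filtered cells that were not members. The depths were unequal, with medians of 12459.5 UMIs in the 34 cells and 2587 in the cells that were not members. Against all other filtered cells, 8 of 8 fibroblast markers outside the rule were at least 4-fold higher, as were 6 of 8 smooth muscle markers, 5 of 8 myofibroblast markers and 3 of 6 mesangial markers, of which 2, 3 and 2 were too low to compare. A gene was compared only at 20 CPM or more in members or in other cells. Genes rare in other cells could thus enter only where members were high, so this count, and those of all gene lists below, describe the members and support nothing. In this contrast 1156 of 7476 tested genes (15.5%) were at least 4-fold higher and 729 (9.75%) at least 4-fold lower, and the median fold of all tested genes was 1.42.

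Of 9 pericyte markers outside the rule 4 reached 20 CPM, all through the members, and the other 5 stayed under it in both groups. The 4 that reached it were each at least 4-fold higher than in other cells, at a median of 16.1-fold. Rgs5, a regulator of G protein signalling used as a pericyte marker, had 76 UMIs in 8 members, 32 of them in 1 cell of library 4. Kcnj8 and Abcc9, the subunits of the potassium channel of pericytes, had 3 UMIs each (4.19 CPM), against 1.38 and 2.31 CPM in other cells. Higd1b was at 0, which allows up to 4.19 CPM. Cspg4, which encodes NG2, was at 116 CPM in 32 cells, 10.3-fold over other cells (8.16 to 12.8). Kcnj8, Abcc9 and Higd1b thus had 3 UMIs or fewer and Rgs5 lay in few cells, while the 4 markers that could be compared were higher. The members are called by their genes below.

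Markers of tubule cells and leukocytes were mostly low in the members, and those of endothelium and podocytes were not uniformly so. The rule left out cells by Ptprc, Cdh5, Lrp2 and Slc12a1. Low markers of leukocytes, endothelium and tubule were thus in part set by the rule and support nothing. All 10 proximal tubule markers were at least 4-fold lower, and they summed to a median of 0.146% of a member's UMIs, with a range from 0 to 6.58%. In the members of library 4 they summed to 25648 CPM, against 48112 in other cells. Leukocyte markers were at least 4-fold lower in 7 of 9 tested genes, although 2 members held more than 0.5% of their UMIs in them, at most 3.69%. In sub-cluster B, described further on, leukocyte markers summed to 3609 CPM, against 2130 in other cells. The endothelial genes Pecam1, Kdr and Egfl7 were at 0, while Emcn (58 UMIs in 16 cells) and Plvap (19 UMIs in 8 cells) were 6.48-fold and 10.9-fold higher than in other cells. The endothelial list summed to 134 CPM against 52.6 in other cells. Of 2 tested podocyte markers 1 was at least 4-fold higher, Synpo, named for that (10.96-fold, 21 members), and that list summed to 116 against 31.9 CPM. Markers of injured tubule summed to 9554 against 8665 CPM, most of it Spp1, with 1 of 7 tested genes higher and 4 lower. Spp1 was 1.15-fold over other cells with all libraries and 3.20-fold without library 3. Of the renin cell, mesothelial and Schwann cell markers, Ren1, Msln and Sox10 were at 0. The part of captured free RNA in these levels was not tested.

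**Figure D2:**
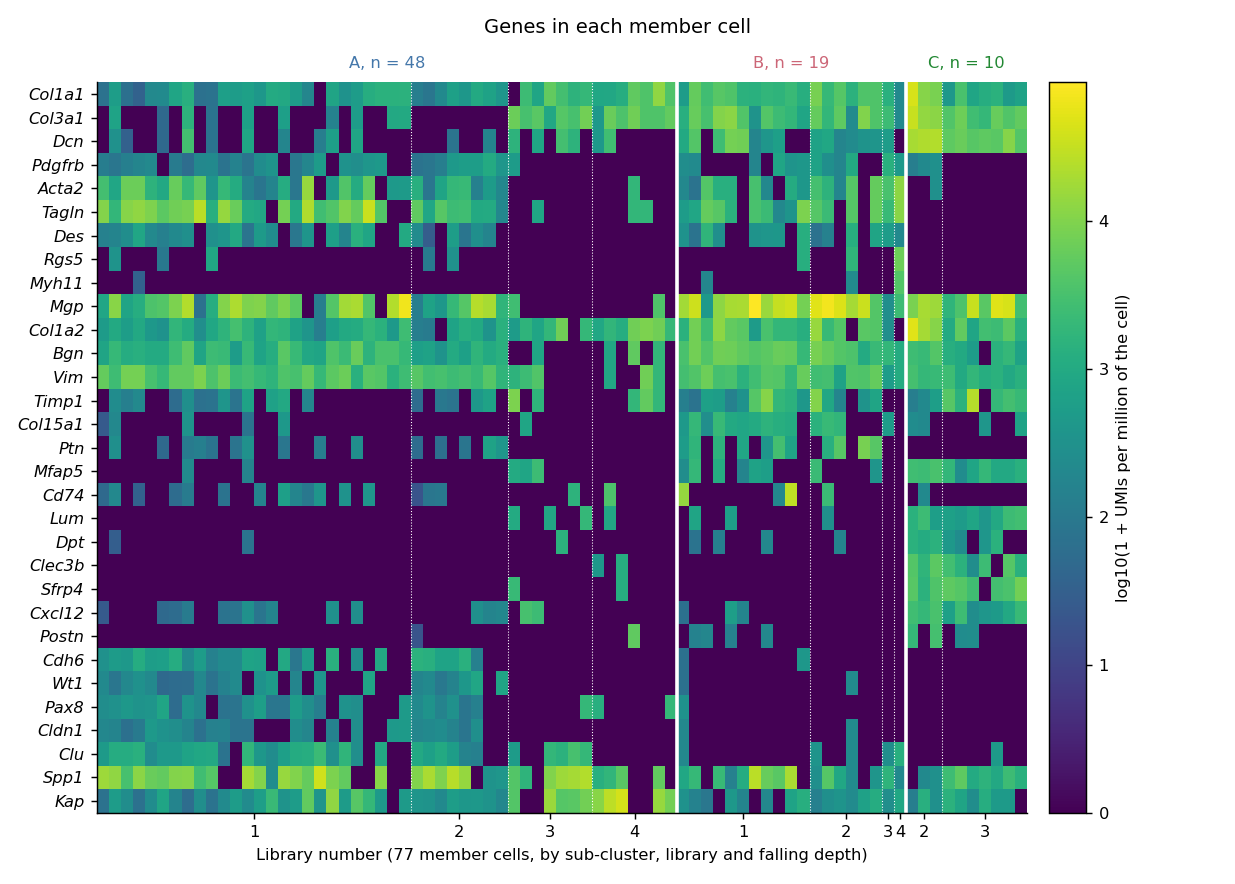
Levels of 31 genes in each of the 77 members as log10(1 + CPM of the cell), with cells in columns ordered by sub-cluster (A with 48, B with 19, C with 10 cells), library number and falling depth. Thick white lines part the sub-clusters and dotted lines the libraries. Cdh6, Wt1, Pax8 and Cldn1 are seen mainly in the cells of A from libraries 1 and 2, and Clec3b and Sfrp4 mainly in C, where Tagln is at 0.

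The genes that marked the label were counted per cell, with positions on GRCm38. Col1a1 (ENSMUSG00000001506, chromosome 11, 94936224 to 94953042) encodes a chain of type I collagen and had 1073 UMIs in 75 members, between 0 and 334 per cell with a median of 5. Of these 334, or 31.1%, came from 1 cell of library 2. Col3a1 (ENSMUSG00000026043, chromosome 1, 45311538 to 45349706), the chain of type III collagen, was seen in 53 members with 0 to 262 UMIs and a median of 2. Dcn (ENSMUSG00000019929, chromosome 10, 97479609 to 97518143), the small proteoglycan decorin that binds collagen fibrils, was seen in 43 members with 0 to 150 UMIs and a median of 1. Pdgfrb (ENSMUSG00000024620), the receptor of platelet-derived growth factor B, was seen in 45 members with at most 10 UMIs. Acta2 (ENSMUSG00000035783, chromosome 19, 34241090 to 34255590) had 0 to 199 UMIs and a median of 1. Among the members 20 had neither Col3a1 nor Dcn, so these entered on Col1a1 with Pdgfrb, and all 20 were cells of libraries 1 and 2.

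Outside the rule, the 20 genes with the largest fold over other cells among those at 50 CPM or more were mostly genes of the matrix and of stromal cells. Lum, another small proteoglycan of collagen fibrils, was at 90.8 CPM (70.1 to 116) and 1055-fold over other cells (671 to 1696), but in 17 members only. Mfap5, a protein of elastic microfibrils, was 972-fold higher in 23 members (735 to 1296). Col1a2, the partner chain of Col1a1, was at 2284 CPM in 73 members and 569-fold higher (529 to 612). Mgp, a secreted inhibitor of calcification, was at 10049 CPM (9818 to 10284) in 63 members and 336-fold higher. A UMI of it was held by 0.888% of proximal tubule cells and 43.4% of endothelial cells. The fold was 366 for Pdgfra, the receptor of interstitial fibroblasts, in 25 members, and 492 for Prrx1, a transcription factor of mesenchyme, in 27. Postn, a matricellular protein of fibrotic tissue, had only 37 UMIs in 10 members, and 15 of these were in 1 cell. The other genes of the 20 were Mmp3, Clec3b, Adamts2, Cck, Sfrp4, Fam180a, Smoc2, Col6a3, Cygb, Ltbp2, Col15a1, Col5a1 and Cst12, at 257-fold to 805-fold, each in 8 to 35 members.

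The size of these folds depended on the libraries and on the filters. With 1 library left out in turn the fold ranged from 733 to 1969 for Lum, 640.1 to 2162 for Mfap5, 418 to 1676 for Col1a2, 283 to 739 for Mgp, 224 to 825 for Pdgfra, 382 to 927 for Prrx1 and 222 to 1764 for Postn. Among these settings the highest value of each was the one without library 1. At up to 10% mitochondrial UMIs each gene fell below its range, at 630, 544, 303, 175, 202, 228 and 215 in the same order. Cck fell from 600.2 to 45.0 without library 1, where 50 of its 51 UMIs lay, and Adamts2 went from 690.5 to 2365. Under a stricter criterion of 3 of the 4 genes and a sum of 8, Fam180a was at 43.7-fold and Cst12 at 13.1-fold. Lum and Mfap5 rose under it, to 2695-fold and 2687-fold. Of the 65 UMIs of Lum 24 lay in 10 cells of library 3, and of the 136 of Sfrp4 79 lay in 7 cells of that library.

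Genes that build the matrix were higher in the members, which the rule picked in part by collagen genes, than in other filtered cells. Counts of lists against other cells stand, from here on, beside the 15.5% of all tested genes called at least 4-fold higher. All 14 collagen genes outside the rule were at least 4-fold higher, with a median of 111-fold. Col1a2 and Col6a3, a chain of microfibrillar type VI collagen (436-fold), led, and the basement membrane chain Col4a1, which tubule cells also express, was 16.5-fold higher at 1247 CPM. Among 20 tested matrix glycoproteins 19 were higher, with Sparc at 4861 CPM in 74 members (68.5-fold), Bgn, biglycan, at 2094 in 66 (200.5-fold) and Fn1, fibronectin, at 819 in 50 (37.8-fold). The exception, named for that, was Ccn1 at 130 CPM against 621 in other cells. Of 14 genes that fold, trim or cross-link collagen 9 were higher, with the collagen chaperone Serpinh1 at 1061 CPM (18.9-fold) and the cross-linking enzymes Lox (159-fold) and Loxl1 (109-fold). The hydroxylases P4ha1, P4ha2 and P4hb, chosen after their values were seen, were 1.37-fold to 1.80-fold over other cells.

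Among genes of matrix turnover 10 of 13 were higher, against 15.5% of all tested genes, and 1, Plau, was lower (9.78 against 62.4 CPM). Timp1, an inhibitor of matrix metalloproteinases, was at 703 CPM (643 to 767) in 48 members, 122-fold over other cells, with 28.8% of its UMIs in 1 cell. The fold was 211 without library 1, 207 without library 3 and 302 under the stricter criterion. By library its level was 382, 796, 4746 and 456 CPM in libraries 1 to 4. Mmp2, a gelatinase, was 149-fold higher in 41 members. Mmp3, stromelysin 1, had 53 UMIs in 8 members, of which 38 lay in 6 cells of library 3. Timp3 was at 1027 CPM in members and 1919 in other cells, a ratio of 0.535 (0.497 to 0.575).

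**Figure D3:**
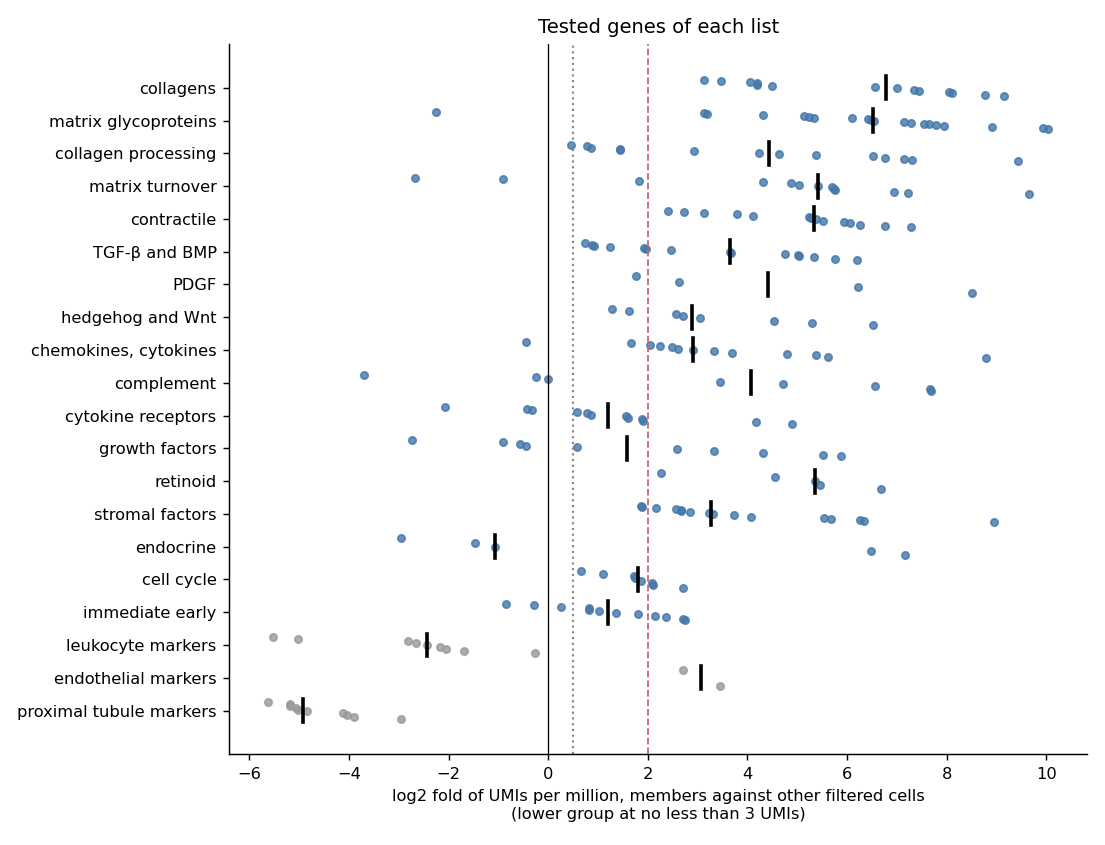
Fold of each tested gene (log2, CPM in 77 members against the other filtered cells, the lower group at no less than 3 UMIs) by gene list, 1 point per gene, with the list's median as a black bar. The dashed line marks 4-fold and the dotted line the median of all 7476 tested genes, at 1.42-fold. All tested collagens and contractile genes lie right of 4-fold, and all 10 proximal tubule markers (grey, with the leukocyte and endothelial markers) lie left of 0.

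Contractile genes were the other group that stood high. All 14 tested genes of the list were at least 4-fold higher, against 15.5% of all tested genes, with a median of 40.2-fold. Tagln, which encodes the actin-binding protein transgelin, had 3958 UMIs in 50 members (5532 CPM, 108-fold, 104 to 112), and Acta2 1506 UMIs in 50 (2105 CPM, 76.4-fold, 72.3 to 80.7). In libraries 1 and 2 alone the folds were 45.9 for Tagln and 34.6 for Acta2, and under the stricter criterion 39.7 and 32.7. Sub-cluster A, described further on, held 3606 of these UMIs of Tagln and 1258 of those of Acta2. Per member, Tagln ranged from 0 to 424 UMIs with a median of 10. Both were seen in 45 members, 1 of them in 10 and neither in 22. Des, desmin, was seen in 41 members and was 156-fold higher. Myh11, the heavy chain of smooth muscle myosin, had 23 UMIs in 4 members, 19 of them in the cell of library 4 with the most Rgs5, and Actg2 had 5 UMIs, all in 1 cell.

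Contractile genes were uneven between libraries. Acta2 had 1195 UMIs in 33 of 37 members of library 1, 241 in 14 of 17 of library 2, 12 in 1 of 15 of library 3 and 58 in 2 of 8 of library 4, 57 of these in 1 cell. In libraries 1 and 2 alone 87.0% of members had an Acta2 UMI, a setting chosen after seeing the data, and without library 1 the share was 42.5%. The members of libraries 1 and 2 were also the deeper ones, so the same shares are given next at equal depth.

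To compare members at equal depth, 69 were thinned to 1000 UMIs and split by Acta2. In this draw, made apart from that behind the share given before, at least 2 UMIs were found in 24 cells, exactly 1 in 9 and 0 in 36. Acta2 was at 0 in 15 of 37 cells of library 1, 8 of 17 of library 2, 11 of 12 of library 3 and 2 of 3 of library 4. The 24 positive cells were 16 of library 1, 6 of library 2 and 1 each of libraries 3 and 4, so library 3 stayed low in Acta2 at equal depth. Of 12 other contractile genes at 20 CPM or more in either group, 8 were at least 2-fold higher in positive cells and 0 lower. Over all 8307 tested genes 365 (4.39%) were higher. At this depth 1 UMI was enough to be tested, as for Lmod1 (1 UMI against 1) and Mcam (1 against 2). The lower group was set at no less than 3 UMIs, so genes of few UMIs could not pass. Such genes are among the 8307 and lower the 4.39%. The count of 8 was 5 with a limit of 10% mitochondrial UMIs and 5 under the stricter criterion. Tagln was at 10250 CPM against 1306, a ratio of 7.85 (5.73 to 10.97). Tpm1 was at 1750 against 361 (ratio 4.85, 2.55 to 9.84) and Myl9, a myosin light chain chosen after its values were seen, at 708 against 55.6 (17 and 2 UMIs, ratio 12.8, 3.03 to 114). The others of the 8, likewise named after their values were seen, were Tpm2 (32 UMIs against 1), Smtn (11 against 4), Mylk (11 against 7), Mustn1 (9 against 1) and Myh11 (6 against 0). The interval for Mylk spanned 1 (0.834 to 7.17). Cald1 was alike on this scale at 1292 and 1167 CPM (ratio 1.11, 0.673 to 1.80), and so was Des (ratio 1.12, 0.322 to 3.70).

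Fibroblast markers went the other way in the same cells. Of 8 tested, 0 were higher and 6 at least 2-fold lower in the Acta2-positive members, against 1.65% of all tested genes. The 1.65% is lowered in the same way by genes of few UMIs. Col1a2 was at 1958 CPM against 4667 (ratio 0.420, 0.297 to 0.583) and Lum at 83.3 against 444 (2 and 16 UMIs, ratio 0.188, 0.0209 to 0.798). Mgp differed little, at 16458 against 12778 CPM (ratio 1.29). The split is not independent of the sub-clusters given further on, since the positive cells were 14 of sub-cluster A and 10 of B and the negative cells included all 10 of C.

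**Figure D4:**
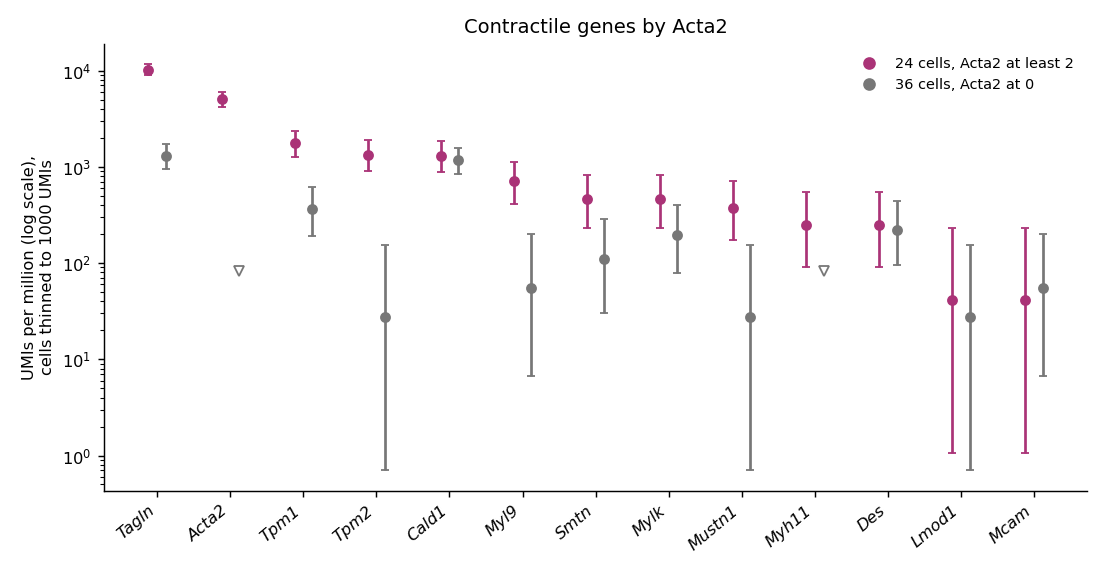
Level of 13 contractile genes (CPM, log scale, with exact Poisson 95% intervals) in members thinned to 1000 UMIs, 24 with at least 2 Acta2 UMIs (purple) and 36 with 0 (grey). Open triangles mark the level of 3 UMIs where 0 were counted. Tagln, Tpm1, Tpm2 and Myl9 lie higher in the Acta2 cells without overlap of the intervals, and Cald1 and Des lie together.

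The proximal promoters of Acta2 and Myl9 are shown because these genes were high in the same cells and the CArG box, the motif bound by serum response factor, is the textbook element of contractile genes. Each sequence runs from 250 bases before to 50 after the start of the RefSeq transcript (GRCm38.p6), at chr19:34255324-34255623 on the minus strand for Acta2 and chr2:156775214-156775513 on the plus strand for Myl9. Capitals mark windows within 1 mismatch of the CArG box. The motif reads the same on both strands.

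Acta2: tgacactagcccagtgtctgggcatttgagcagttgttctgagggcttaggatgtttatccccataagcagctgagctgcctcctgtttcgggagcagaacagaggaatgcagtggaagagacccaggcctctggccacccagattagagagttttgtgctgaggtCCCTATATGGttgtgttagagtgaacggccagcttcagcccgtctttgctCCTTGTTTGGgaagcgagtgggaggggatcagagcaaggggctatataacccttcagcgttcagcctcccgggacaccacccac
Myl9: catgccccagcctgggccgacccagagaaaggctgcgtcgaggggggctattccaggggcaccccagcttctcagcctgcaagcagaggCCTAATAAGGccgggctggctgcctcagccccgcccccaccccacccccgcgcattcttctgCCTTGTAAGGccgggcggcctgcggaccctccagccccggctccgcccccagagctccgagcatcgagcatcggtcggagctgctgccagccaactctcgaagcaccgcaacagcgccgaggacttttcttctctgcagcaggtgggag

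Myl9 held 1 exact match, at bases 90 to 99 of the printed run, and Acta2 none in this window but 2 windows with 1 mismatch, at bases 167 to 176 and 217 to 226. Of the 12 contractile genes with an entry 1 held an exact match and 5 a window within 1 mismatch. Over all 32851 promoters of the table the shares were 1.63% and 21.1%. These matches describe the sequence only, and Tagln, Myh11 and Actg2 had no entry.

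Signalling genes had fewer UMIs than those of the matrix. Counts of these lists stand beside the same 15.5% of all tested genes called at least 4-fold higher. In the TGF-β and BMP list 9 of 15 tested genes were at least 4-fold higher and 0 lower. The latent TGF-β binding proteins Ltbp3 and Ltbp4 were each at 173 CPM (32.4-fold and 54.3-fold), and the ligands Tgfb2 and Tgfb3 were 40.2-fold and 73.7-fold higher at 112 and 36.3 CPM. Grem1, a BMP antagonist, had 8 UMIs, all in 1 cell. In the PDGF list 3 of 4 tested genes outside the rule were higher, with the ligand Pdgfb at 130 CPM (6.16-fold) in 19 members. Pdgfb was at least 4-fold higher in sub-cluster A, which took no stromal name, than in the other members. Of hedgehog and Wnt genes 6 of 8 were higher, led by the secreted modulators Dkk3 (161 CPM, 92.2-fold) and Sfrp2 (53.1 CPM, 39.5-fold). Gli1, the hedgehog effector that marks perivascular progenitors, had 7 UMIs in 7 members, against 0.0215% of proximal tubule cells with a UMI. All 5 tested retinoid genes were higher, among them the retinoic acid-forming enzyme Aldh1a2 (40.9-fold).

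Transcription factors of kidney stroma were higher in 14 of 16 tested genes, at a median of 9.65-fold. Nr2f2 was seen in 54 members and was 5.89-fold higher, and Meis2 was seen in 46 and was 16.9-fold higher. Tcf21, a regulator of stromal and podocyte development, was 76.8-fold higher in 23 members, and Heyl, a Notch target of mural cells, 81.4-fold higher in 23. Foxd1, the factor of the stromal progenitors of the kidney, chosen after its values were seen, had 32 UMIs in 21 members. Tbx18 was at 0.

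Inflammatory genes were mixed. Of 13 tested chemokines and cytokines 11 were at least 4-fold higher, at a median of 7.53-fold, against 15.5% of all tested genes. Cxcl10, a ligand for activated T cells, had 337 UMIs in 18 members, with 41.2% in 1 cell, and Ccl2, which draws monocytes, 119 UMIs in 18, with 50.4% in 1 cell. Cxcl12, the stromal ligand of Cxcr4, was at 134 CPM in 29 members (10.0-fold, 8.08 to 12.2). The fold was 22.7 without library 1 and 32.2 after thinning. A UMI of Cxcl12 was held by 37.7% of members, 37.6% of endothelial cells and 10.6% of proximal tubule cells. After thinning these shares were 18.8%, 11.1% and 1.37%. Ccl19 had 15 UMIs in 8 members and Ccl11 14 in 6, at 441-fold (203 to 953) and 1098-fold (397 to 3487). Cxcl13 was at 0. Among complement genes 5 of 8 were higher, among them the inhibitor Serping1 (496 CPM in 60 members, 207-fold) and C3 (449 CPM, 10.9-fold), while Cfb, chosen after its values were seen, was at 11.2 CPM against 144 in other cells.

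Counts for the receptors of these signals were near those of all tested genes, of which 15.5% were higher and 9.75% lower. In the list of cytokine receptors and related genes 1 of 12 tested was lower, Il1b, chosen after its values were seen (36.3 against 154 CPM), and 2 were higher, Osmr, a receptor chain of oncostatin M, at 29.8-fold and Il1r1, the interleukin-1 receptor, at 17.9-fold. Clec4e, the gene of the receptor Mincle on which the study turned, was at 0 in all 77 members, which by a limit of 3 cells or 3 UMIs allows up to 3.90% of cells with a UMI (exact binomial upper limit 4.68%) and up to 4.19 CPM. Of proximal tubule cells 0.603% had a UMI. Tnf had 11 UMIs in 2 members, both of sub-cluster B, with 81.8% in 1 cell. The study scored cells with a fibrosis list, and 10 of its 13 tested genes outside the rule were higher, among them Vim at 3976 CPM (34.6-fold), Tnc (92.9-fold) and Anxa5 (8.08-fold). In its inflammatory list 10 of 25 tested genes were higher and 8 lower, with Timp1, Ccn2 (40.6-fold), Il6 (27.8-fold) and Vcam1 (22.2-fold) at the top and Lcn2, Havcr1, Cxcl3, Ccr2 and Cxcr2 at 0. Both lists are those the study scored on these samples.

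The next counts stand beside the same 15.5% of all tested genes called higher, and that of cell cycle genes rests on few cells. Among growth factors 5 of 10 were higher and 1 lower, the angiogenic factor Vegfa (11.2 against 74.1 CPM, chosen after its values were seen), with Igfbp7 at 1694 CPM (6.03-fold), Igf1 19.8-fold higher in 25 members and Hgf 58.4-fold higher with 18 UMIs in 4. Fgf10 was at 0. Of the hormone and vasoactive genes 1 of 5 was lower, Ace (2 UMIs, against 32.6 CPM in other cells, chosen after its values were seen), and 2 were higher, the prostacyclin synthase Ptgis (144-fold, 35 members) and the endothelin receptor Ednra (89.2-fold, 16 members). Ren1 was at 0 against 15.3 CPM in other cells, and Epo was at 0 in every filtered cell. The 0 of Ren1 allows up to 4.19 CPM in members. Of 8 tested cell cycle genes 3 were higher, Ccnb2, Cenpf and Ube2c, each in 3 to 5 members. Mki67 had 42 UMIs in 8 members, 42.9% of them in 1 cell. Of 12 immediate early genes 4 were higher, Ier3, Egr1, Nr4a1 and Junb, at 4.45-fold to 6.71-fold.

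Clustering of the members alone gave 3 sub-clusters, in which a gene against the other members is a description, since the groups were made from the same cells. Sub-cluster A held 48 cells (62.3%, 50.6 to 73.1), from libraries 1 to 4 as 26, 8, 7 and 7 cells. It kept no name, as no list of stromal markers reached the 3 markers needed. Its leading genes were Cdh6, a cadherin of the developing and injured nephron, Dcdc2a, Bcam, Cd24a, Cystm1, Lsp1, Gxylt2, Cdh16, Stc2 and Pcbd1, and 152 of 7282 genes (2.09%) were at least 4-fold higher than in the other members. Cdh6 had 364 UMIs in 26 of the 48 cells and 2 UMIs in 2 of the 29 others. Cdh16, the cadherin of kidney tubules, and Cd24a, a surface protein of nephron progenitors, are also known from epithelium.

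The genes of kidney epithelium in sub-cluster A were looked at further, and those named here were chosen after their values were seen. Wt1, a factor of podocytes and parietal cells of the glomerulus as well as of stroma and mesothelium, had a UMI in 24 of 48 cells, Pax8, a factor of the nephron epithelium, in 30 and the tight junction gene Cldn1 in 25. In proximal tubule cells the shares with a UMI were 0.560% for Wt1, 51.8% for Pax8 and 7.53% for Cldn1. Wt1, Pax8 and Cdh6 were seen together in 196 filtered cells. Of these 20 were members, 19 of them in A, and the rest made up 0.222% of the other filtered cells. Most of the 196 were thus not members. Over all members 35 had Wt1 or Pax8 (45.5%, against 24.8% of the other filtered cells), and 0 of the 10 cells of C did. Barcodes of at most 100 UMIs in libraries 1 and 2 held Pax8 at 80.6 and 50.1 CPM, Wt1 at 1.37 and 25.2 CPM and Cdh6 at 4.12 and 8.26 CPM, against 271, 177 and 658 CPM in A. Thinned to 1000 UMIs, Cdh6 was seen in 14.5% of members and 0.324% of proximal tubule cells. Epcam had 1 UMI, and the keratin Krt19 and Cdh1 were at 0. These cells carried genes that the label of fibroblasts and pericytes does not cover, and no other name is given to them.

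The cells of sub-cluster A differed by library and depth. Its 34 cells of libraries 1 and 2 had a median of 12459.5 UMIs, and 30 of them had Wt1 or Pax8, 26 Cdh6, 32 Acta2 and 31 Tagln. Its 14 cells of libraries 3 and 4 had a median of 763 UMIs, 1 had Acta2 and 0 had Cdh6 or Cldn1. Proximal tubule markers made up a median of 2.13% of their UMIs, against 0.135% in the 34 cells. These 14 included all 8 members under 1000 UMIs. They came from the libraries in which small barcodes were rich in collagen. Of all members 4, 3 of library 3 and 1 of library 4, shared their barcode sequence with such a small barcode of another library. Without these 4 members the share of members in sub-clusters named fibroblast-like, given further on, was 38.4%, against 12.99% with them. The cause of the sharing was not tested.

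Most contractile transcripts of the members lay in A, which held 553344 of their 715489 UMIs. Acta2 was at 2273 CPM in A, 1968 in B and 27.3 (1 UMI) in C, and Tagln at 6517, 2804 and 0, where 0 in C allows up to 81.9 CPM. Per cell the order of A and B was the other way, with a median of 462 CPM of Acta2 in A and 1276 in B, and of 1816 CPM of Tagln in A and 2294 in B. In libraries 1 and 2 alone the median cell held 9701 CPM of the contractile list in A and 7822 in B, so the order of A and B turned with the cells counted. In the 34 cells of libraries 1 and 2 the median was 14.5 UMIs of Acta2 and 47 of Tagln, against a median of 5 UMIs of Col1a1 and 0 of Col3a1. Spp1, osteopontin, was at 10117 CPM in A, 3003 in B and 1393 in C. Collagen went the other way, with Col1a1 at 416, 3211 and 12015 CPM and Col1a2 at 788, 4923 and 15838. Col1a1 and Col3a1 are genes of the rule, which asked for at least 4 UMIs over its 4 genes at any depth. Shallow cells thus needed a higher share of these genes to enter, at a median of 7495 UMIs in A and 3586.5 in C. The levels of Col1a1 and Col3a1 here are a description only. For Col1a1 the step from B to C rested on 1 cell with 334 of the 440 UMIs of C, since the median per cell was 659, 2007 and 1307 CPM. The same cell held 402 of the 580 Col1a2 UMIs of C and 262 of its 456 Col3a1 UMIs. The medians per cell of Col1a2 were 993, 2522 and 3795 CPM, those of Col3a1 23.3, 3152 and 5862.

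**Figure D5:**
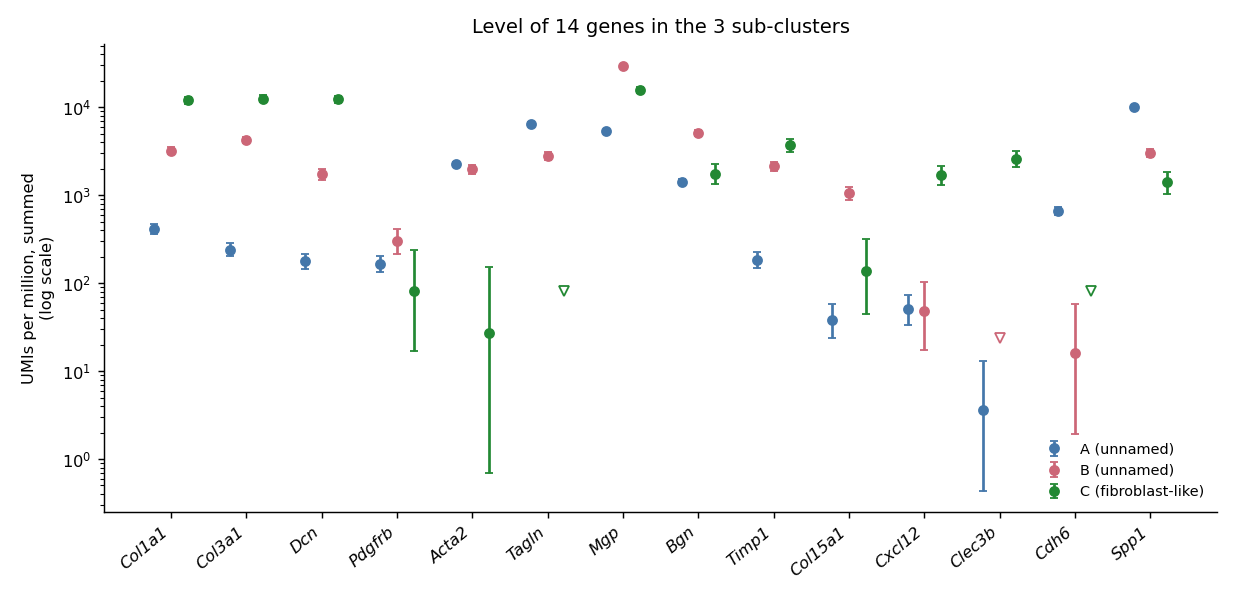
Level of 14 genes (UMIs summed over the cells and scaled CPM, log scale, with exact Poisson 95% intervals) in sub-clusters A (48 cells), B (19) and C (10). Open triangles mark the level of 3 UMIs where 0 were counted. Summed Col1a1, Col3a1 and Dcn, genes of the rule and given as a description, step up from A to C (for Col1a1 1 cell holds 334 of the 440 UMIs of C). Tagln is at 6517, 2804 and 0 CPM, and Cdh6 is at 658 CPM in A, 15.9 in B and 0 in C.

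Sub-cluster B held 19 cells (24.7%, 15.6 to 35.8), of which 11 were from library 1, 6 from library 2 and 1 each from libraries 3 and 4, at a median of 5699 UMIs. All 19 had Col3a1, with 1 to 84 UMIs and a median of 20, and 15 had both Acta2 and Tagln. Mgp was at 29006 CPM in all 19 cells, against 5373 in A and 15729 in C. Col15a1, a collagen of basement membrane zones, had 132 UMIs in 14 of the 19 cells (1052 CPM, 38.0 in A and 137 in C). Ptn, pleiotrophin, chosen after its values were seen, had 136 UMIs in 11 cells. Pdgfra was seen in 11 and Bgn in all 19.

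Sub-cluster B passed 4 fibroblast markers but its leading genes went against that name, so it was left unnamed. They were Ccl4, Cxcl14, Cck, C1qb, H2-Aa, Ctss, Ccl3, C1qa, H2-Eb1 and Fcer1g, of which 8 are genes of macrophages and antigen-presenting cells. These 8 were each seen in 2 to 5 of the 19 cells, and 3 members, all in B, held 10 or more UMIs of Cd74. Without these 3 cells the number of genes at least 4-fold higher in members over other cells was 1158. The share of members in sub-clusters named fibroblast-like was then 33.8%, against 12.99% with them. It also moved with these cells kept, to 39.1% at 1000 UMIs or more. What moved the share was not tested. In B 358 of 7551 genes (4.74%) were at least 4-fold over the other members. Cck and Cxcl14 were seen in 8 and 10 cells. The cell of library 4 stood apart in B with 57 UMIs of Acta2, 52 of Tagln, 32 of Rgs5 and 19 of Myh11, and 1 of Col1a1.

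Sub-cluster C was fibroblast-like by all 8 of its 8 markers outside the rule, and held 10 cells (12.99%, 6.41 to 22.6), 3 from library 2 and 7 from library 3, at a median of 3586.5 UMIs. The share of members that took this name was not stable, at 0% under a stricter criterion of 3 genes and a sum of 8 and 65.0% without library 1. Its leading genes were Clec3b, Sfrp4, Rbp4, Pcolce2, Ly6c1, Fmo2, Tnxb, Dpt, C7 and Podn, with 182 of 8028 genes (2.27%) at least 4-fold over the other members. Clec3b, tetranectin, had 94 UMIs in 9 of 10 cells and 2 in the other 67 members, and Sfrp4, a secreted Wnt modulator, 131 UMIs in 9 and 5 in the others. Lum, Mfap5 and Cxcl12 were seen in 10 of 10 cells. The expression of Gsn, gelsolin, was 7236 CPM, against 670.5 in A and 637 in B, and that of Pi16, a marker of adventitial fibroblasts, 1365 against 59.6 and 143.

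The 10 cells of C were uneven in collagen. Col1a1 had 334, 50 and 30 UMIs in the 3 cells of library 2 and 1 to 13 in the 7 cells of library 3, so the cell with 334 held most of the 440 UMIs. Col3a1 showed the same order, with 41 to 262 UMIs in library 2 and 5 to 28 in library 3. Dcn was present in all 10, with 6 to 150 UMIs. Mmp3 was seen in 6 of the cells, all 6 from library 3, with 38 UMIs. Acta2 had 1 UMI in 1 cell, and neither Des, Rgs5 nor Myh11 had any.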

How the data were processed

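By the labels the authors used Cell Ranger 6.0 on mm10, and the matrix header names version 6.0.1. The authors deposited 1 matrix of raw UMI counts for 32285 genes, without cell calling. From these counts barcodes were filtered and members picked as stated. The 5 libraries had 82426945 to 139382799 UMIs and 10020 to 33839 filtered cells each, and 0 columns of per-sample values were left unused.

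Genes were compared at 20 CPM or more in either group, with the lower group at no less than 3 UMIs, and called at 4-fold (2-fold in the Acta2 split). Members were scaled to 10000 counts per cell, logged and clustered on 2000 variable genes, with 20 principal components, 15 neighbours and Leiden resolution 0.5 (scanpy 1.11.5, igraph 0.11.9). Genes of the function lists and of the study's lists were left out of the variable genes. Genes found only in the lists of cell type markers were not, so the markers that name a sub-cluster were not held out. A sub-cluster took a name from at least 3 markers in 30% of its cells at 2-fold over the other members, unless its leading genes went against it. Scrublet's own threshold marked under 0.5% of cells in 4 of 5 libraries and was not used, and the highest scores, at 0.8% per 1000 cells, were left out as an alternative. Folds and intervals were tested on simulated Poisson and binomial counts, which hold no spread between cells. Thinning was checked on the members themselves, for its totals and bounds only.

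The genes named are the rule genes and Acta2, the 20 with the largest fold at 50 CPM, the 10 leading genes of each sub-cluster at 100 CPM, of each list the 4 highest in level, the 4 highest in fold and those at 0, and Clec4e, Tnf, Epo, Ren1, Gli1, Pdgfra, Postn and Cxcl12. Members and lists were chosen with earlier results of these data known. Some of the genes this rule names are not reported here.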

Additional observations from a re-analysis of the deposited data

Results flagged for a closer look

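Barcodes below 500 UMIs, which no comparison of members with other cells used, met the 4-gene criterion 455 times in library 3, 2280 times in library 4 and 149 times in library 5, and 0 times in libraries 1 and 2. They were singled out because they carry the genes that define the members in data left out by the filter. Their median depth was 36, 78 and 25 UMIs. Of the 455 sequences of library 3, 384 (84.4%) also met the criterion in library 4, and of the 149 of library 5, 139 (93.3%) did. Libraries 3 and 5 shared 71. In library 4 the filtered cells held 0.505% of the Col1a1 UMIs, 17.4% of those of Pdgfrb and 68.5% of those of Acta2, while barcodes of 11 to 100 UMIs held 61.7%, 47.8% and 8.77%. The cause was not tested.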

How the results depend on the processing

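No paired analysis was possible because the labels tie no library to a group and nothing was tested. The share of members among filtered cells, 0.0972%, moved to 0.128% at 1000 UMIs or more, 0.198% at up to 10% mitochondrial UMIs, 0.0467% with 3 of 4 genes and a sum of 8, 0.0745% with no Lrp2 or Slc12a1, 0.143% without the highest Scrublet scores, which needed 1000 UMIs, and 0.253% in libraries 1 and 2 alone, and from 0.0578% to 0.137% when 1 library was left out. The share with Acta2, 64.9%, was 42.5% without library 1, 79.0% without library 3 and 87.0% in libraries 1 and 2 alone. The 1156 genes at least 4-fold higher became 603 at 50 CPM, 1967 with 10 UMIs as the only filter and 706 after thinning. The number of genes tested also changed with the filter, so these counts are not shares of the same total. The share in fibroblast-like sub-clusters, 12.99%, was the least stable. It was 39.1% at 1000 UMIs or more and again without the highest Scrublet scores, 34.3% with the mitochondrial limit, 0% with the stricter criterion, 40.7% with no Lrp2, 37.7% at resolution 0.3, 42.9% with 10 components, 37.0% in libraries 1 and 2, 38.4% without the shared barcodes, 33.8% without Cd74-rich members, and 12.99% to 65.0% with 1 library left out, the highest without library 1. It was 12.99% at resolution 1.0 and with genes of the function and study lists also allowed as features. Contractile genes higher with Acta2, 8, were 5 with the mitochondrial limit and 5 with the stricter criterion, and 6 to 8 with 1 library left out. Of 93 such values 63 stayed within limits that are not stated here and 30 moved. These counts therefore do not show how far a value moved. Settings on libraries 1 and 2, shared barcodes and Cd74 were chosen after seeing the data.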
